A study of Mus musculus with 4 samples.

Results

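The genes for platelet-derived growth factor (PDGF) ligands and receptors were followed between germ layers of the mouse embryo. They were the ligand genes Pdgfa, Pdgfb and Pdgfc and the receptor genes Pdgfra and Pdgfrb, 5 of the 18194 genes with a probe set of their own. Every probe set of the array that the platform annotation gives to just 1 of these genes was taken, which made 11 of the 45101 probe sets in the table. The samples came from embryos of strain ARC/s at embryonic day 8.5 with 4 to 5 somites, with no genetic change or treatment named in the labels. Foregut endoderm, cut from the anterior intestinal portal, was measured in 2 samples, and a mixture of heart mesoderm with head mesoderm and head ectoderm, called mesoderm/ectoderm below, in another 2. Each sample was a pool of 15 to 20 tissue pieces, and each of the 2 experiments gave 1 sample of either tissue. The tissues of experiment 1 were separated by hand and those of experiment 2 with trypsin and pancreatin as well, so experiment and way of dissection cannot be told apart.

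PDGF ligands are secreted dimers, and their receptors are tyrosine kinases of the cell surface that pair when a dimer binds. Dimers of PDGF-A and of PDGF-C signal mainly through the alpha receptor, and PDGF-B binds both the alpha and the beta receptor. In early embryos the ligands are known from epithelia such as ectoderm and endoderm, and the alpha receptor from the mesenchyme, crest and mesoderm beside them. The beta receptor is best known from the mural cells of vessels, for which endothelial PDGF-B is a signal.

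Values are log2 intensities after the authors' GC-RMA normalization. A probe set was kept for testing when it lay above 5 on at least 2 of the 4 arrays, as 13288 did. An array's lowest values form a floor, and between 41.3% and 44.7% of its probe sets lay within 0.1 of the lowest. The tissues carried markers of other cell types unevenly. The heart muscle list of 12 genes had a median of 9.91 in foregut endoderm 1 and 4.03 in foregut endoderm 2, and of 3.22 in mesoderm/ectoderm 1 and 11.92 in mesoderm/ectoderm 2. The sample labelled mesoderm/ectoderm 1 therefore went against its label as a tissue with heart, and heart genes were high in foregut endoderm 1. Of the 12 foregut endoderm markers, 10 were above 5 on each endoderm array, against 4 in mesoderm/ectoderm 1 and 7 in mesoderm/ectoderm 2. Shh, a secreted signal of foregut endoderm, read 10.20 and 11.88 on the endoderm arrays and 7.05 and 8.17 on the others. Nkx2-1, a marker of lung and thyroid endoderm, was at the floor on all 4 arrays. One description field calls foregut endoderm 2 ectoderm, and its title, source and tissue name foregut endoderm. For this reason each result below is given per experiment as well.

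Of the 11 probe sets 6 were kept, 2 for Pdgfa, 2 for Pdgfc and 1 for each receptor. The other 5 were not, among them both of Pdgfb. The counts that follow describe these 6 only. They are also given for the 5 without Pdgfc 1449351_s_at, which passed the filter only through the endoderm arrays, and then over the 13030 probe sets of the array that did not pass through 1 tissue alone. In both experiments 4 of them lay higher in foregut endoderm, a pattern shared by 35.7% of all kept probe sets, and 3 of the 5, against 35%. Centring each array on the median of the kept probe sets left 3 of the 6, without Pdgfrb, against 3100 of all 13288. As read, 2 of the 6 were at least 2-fold higher in both experiments, against 3.57% of all kept probe sets, and 0 that much lower (1% of all). The 2 were Pdgfa 1449187_at and Pdgfc 1449351_s_at. The latter lay below the filter in mesoderm/ectoderm, and against the filter level its rise in experiment 2 was less than 2-fold. Without 1449351_s_at, 1 of 5 was at least 2-fold higher in both, against 2.79%. The 2 became 1 with the same centring and 0 with quantile normalization or with log2 of intensity plus 16. The 1 left with that centring was Pdgfc 1449351_s_at, which was kept only through endoderm. Pdgfa 1449187_at then differed by 0.78 in experiment 1. Across the array that made 474 higher and 133 lower, or 347 and 211 with that centring, which moved the median difference of all kept probe sets from 0.10 to -0.08. Both endoderm values lay above both others for 3 of the 6, against 16.4% of all, and for 2 of the 5, against 15.3%. With limma, 0 of the 6 had an adjusted p under 0.05 for the tissue difference, and neither had any other kept probe set (0%). At an unadjusted p under 0.05 there were 2, both of Pdgfc, where 2.97% of all kept probe sets were so on the higher side and 0.79% on the lower. Without 1449351_s_at there was 1 of 5, against 2.18% on the higher side. With the replicate number as a block 3 of the 6 were so, both of Pdgfc and 1 of Pdgfa (1449187_at), against 7.28% of all on the higher side (2 of the 5, against 6.43%), and 0 passed after adjustment (0%). An exact permutation test of 2 arrays against 2 cannot go below a two-sided p of 0.333. In bulk tissue, fewer cells that express a gene and less RNA per cell cannot be told apart.

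**Figure D1:**
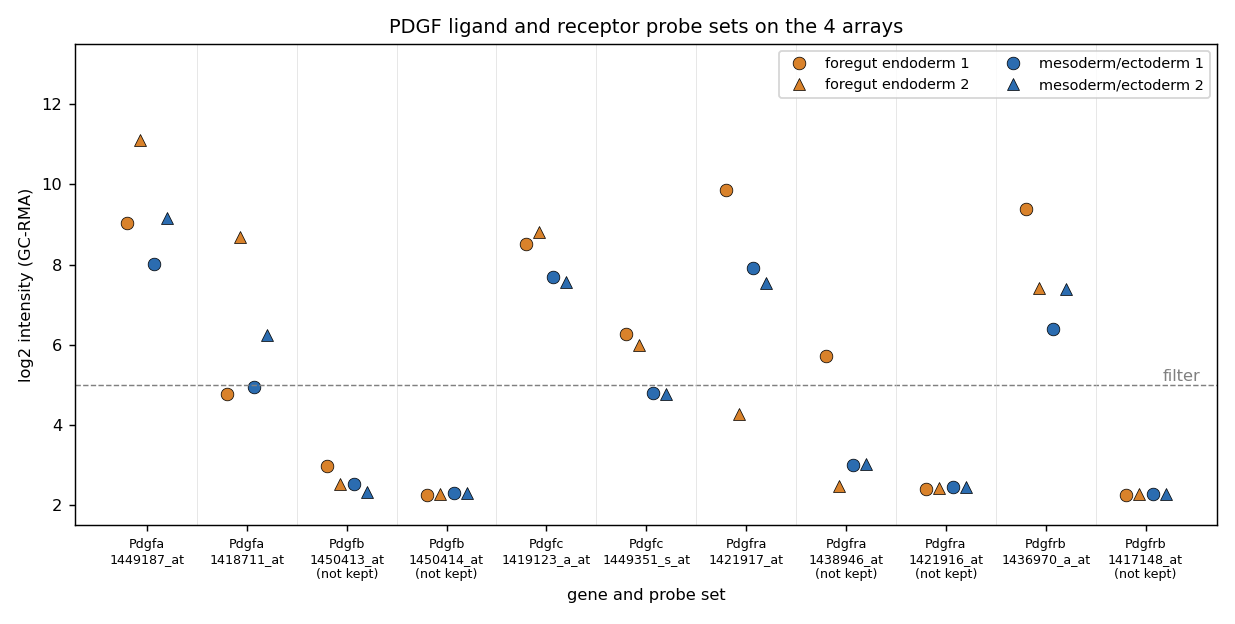
Log2 intensity of each of the 11 probe sets on the 4 arrays, with circles for experiment 1, triangles for experiment 2, orange for foregut endoderm and blue for mesoderm/ectoderm. The dashed line is the filter at 5. Both Pdgfc probe sets have their orange points above their blue points, Pdgfra (1421917_at) ranges from 4.28 to 9.86, and both Pdgfb probe sets lie below 5 on every array.

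Pdgfa encodes the A chain. Its probe set 1449187_at read 9.03 in foregut endoderm 1, 11.10 in foregut endoderm 2, 8.01 in mesoderm/ectoderm 1 and 9.16 in mesoderm/ectoderm 2. Endoderm was the higher tissue within each experiment, yet the groups overlapped, because mesoderm/ectoderm 2 lay above foregut endoderm 1. The difference was 1.02 in experiment 1, or 2.03-fold, and 1.94 in experiment 2, or 3.83-fold. The mean was 10.06 ± 1.47 in endoderm and 8.59 ± 0.82 elsewhere (SD, n = 2), a difference of 1.48 ± 0.92 (SE) with limma's adjusted p = 1.00. The difference was 0.44 without foregut endoderm 2 and 2.51 without foregut endoderm 1.

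The other probe set of Pdgfa, 1418711_at, read 4.78 and 8.70 in foregut endoderm 1 and 2 and 4.94 and 6.24 in mesoderm/ectoderm 1 and 2. Only the arrays of experiment 2 rose above the filter. Its differences were -0.16 and 2.46, so the higher level in endoderm was seen in experiment 2 alone with this probe set. Its mean difference of 1.15 ± 1.55 (SE) became -0.81 without foregut endoderm 2. The foregut endoderm markers also differed between experiments, with medians of 7.97 and 9.65 on the endoderm arrays and 4.26 and 6.31 on the others, and their part in the Pdgfa values was not tested.

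Pdgfc encodes a chain that is secreted with an inhibitory CUB domain, which proteases remove. Probe set 1419123_a_at read 8.5 and 8.81 in foregut endoderm 1 and 2 against 7.68 and 7.58 in mesoderm/ectoderm 1 and 2. The 2 endoderm values were the highest, and arrays of the same tissue lay close to each other. The difference was 0.82 in experiment 1 and 1.23 in experiment 2, or 1.77-fold and 2.34-fold. The means were 8.65 ± 0.21 and 7.63 ± 0.07 (SD, n = 2), a difference of 1.02 ± 0.32 (SE) with limma's adjusted p = 1.00.

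The other Pdgfc probe set, 1449351_s_at, read 6.27 and 5.99 in endoderm against 4.79 and 4.79. The letter s marks probes shared by several transcripts, which need not be of the same gene. This probe set passed the filter only through the endoderm arrays, so its difference of 1.34 ± 0.32 (SE) is no support of its own. Against the filter level of 5 its endoderm mean was at least 2.19-fold higher, while foregut endoderm 2 alone lay less than 2-fold above that level. Over fits that each lacked 1 array, the difference ran from 0.87 to 1.18 for 1419123_a_at and from 1.20 to 1.48 for 1449351_s_at, the narrowest ranges among the 6.

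The stretches of 250 bases before an annotated start of Pdgfa, of Pdgfc, both of whose probe sets lay higher in endoderm in both experiments, and of Pdgfra, which switched direction, are shown to set the 3 genes side by side (RefSeq, GRCm38.p6, 5′ to 3′ on the gene's strand). Capitals mark the GC box GGGCGG on either strand.
Pdgfa, chr5:138994945-138995194, minus strand: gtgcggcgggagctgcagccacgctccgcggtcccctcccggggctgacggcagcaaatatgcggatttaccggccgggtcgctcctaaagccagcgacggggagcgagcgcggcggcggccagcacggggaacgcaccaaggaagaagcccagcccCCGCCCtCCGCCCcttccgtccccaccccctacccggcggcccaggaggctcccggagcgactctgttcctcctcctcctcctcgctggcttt
Pdgfc, chr3:81036166-81036415, plus strand: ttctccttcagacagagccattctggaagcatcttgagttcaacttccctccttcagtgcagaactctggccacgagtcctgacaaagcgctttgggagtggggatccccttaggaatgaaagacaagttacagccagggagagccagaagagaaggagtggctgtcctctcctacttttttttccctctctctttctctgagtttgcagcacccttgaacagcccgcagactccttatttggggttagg
Pdgfra, chr5:75152001-75152250, plus strand: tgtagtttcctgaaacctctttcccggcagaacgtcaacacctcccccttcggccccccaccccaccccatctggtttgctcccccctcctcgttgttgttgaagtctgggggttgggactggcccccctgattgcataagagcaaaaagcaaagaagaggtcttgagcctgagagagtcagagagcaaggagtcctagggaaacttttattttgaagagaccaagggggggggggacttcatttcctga
The Pdgfa stretch held 2 GC boxes, both on the opposite strand, and that of a second annotated Pdgfa start held 1. The Pdgfc and Pdgfra stretches held 0. Among 32851 such stretches of all genes 32.7% had at least 1. Searches on both strands for TATAAA, for the forkhead letters TGTTTAC and for the GATA letters AGATAA found 0 matches in each of the 3. These are present in 12.4%, 3.17% and 9.99% of all stretches. G and C made up 72.4% of the Pdgfa stretch, 50.8% of Pdgfc and 54.4% of Pdgfra, against a median of 52.4% over all. None of the 4 sets of letters lies within another, and the matches describe these windows only.

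Pdgfb encodes the B chain, made by endothelium. Probe set 1450413_at read 2.97 and 2.53 in foregut endoderm 1 and 2 and 2.54 and 2.34 in mesoderm/ectoderm 1 and 2. The other probe set, 1450414_at, stayed at the floor throughout. No difference in Pdgfb could be read from these arrays. Kdr, a VEGF receptor of endothelium, read 7.88 and 3.65 in foregut endoderm 1 and 2 and 4.78 and 6.57 in mesoderm/ectoderm 1 and 2, above the filter on 2 of the 4 arrays. Pecam1, another endothelial gene, was at the floor on all 4, the only 1 of the 12 on the endothelium list to be so. The 2 of that list with the highest mean, Ets1 and Egfl7, were above the filter on all 4. Ets1, which is on the crest list as well, read 9.20 and 5.94 in foregut endoderm 1 and 2 and 9.58 and 9.69 in mesoderm/ectoderm 1 and 2. Egfl7 lay between 6.63 and 7.27.

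Pdgfra encodes the alpha receptor. Its kept probe set, 1421917_at, read 9.86 in foregut endoderm 1 and 4.28 in foregut endoderm 2, against 7.91 and 7.55 in mesoderm/ectoderm 1 and 2. The endoderm arrays held both the highest and the lowest value, and those of mesoderm/ectoderm lay together between them. Pdgfra was thus 3.88-fold higher in endoderm in experiment 1 (1.96). In experiment 2 the difference was -3.26. As foregut endoderm 2 lay below the filter level of 5, the fold there is given against that level, at least 5.84-fold lower in endoderm, and the difference was -2.51 with log2 of intensity plus 16. That pattern, at least 2-fold higher in experiment 1 and lower in experiment 2, was found for 1.6% of all kept probe sets. The mean difference of -0.65 ± 2.08 (SE; limma's adjusted p = 1.00) stands for neither experiment. It was -3.44 without foregut endoderm 1 and 2.14 without foregut endoderm 2.

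The 2 other Pdgfra probe sets were not kept. Probe set 1438946_at reached 5.73 in foregut endoderm 1 and stayed at 2.48 in foregut endoderm 2, 3.02 in mesoderm/ectoderm 1 and 3.02 in mesoderm/ectoderm 2. It was above 5 on the first of these arrays alone, and the order of the other 3 values, all below the filter, was not read. Probe set 1421916_at lay between 2.42 and 2.45 on the 4 arrays and differed by no more than the arrays' lowest values did, which ran from 2.25 to 2.28.

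Pdgfrb encodes the beta receptor. Probe set 1436970_a_at read 9.40 in foregut endoderm 1, 7.42 in foregut endoderm 2, 6.39 in mesoderm/ectoderm 1 and 7.39 in mesoderm/ectoderm 2. Foregut endoderm 1 stood above the rest, while the tissues of experiment 2 were level. The difference was 3.00 in experiment 1, or 8.01-fold, and 0.03 in experiment 2. The latter fell just below 0 under other scalings: -0.004 with median centring over all probe sets, -0.08 with quantile normalization and -0.09 with median centring over the kept probe sets. With these the groups overlapped for Pdgfrb, and the count without overlap was 2 of the 6. The mean difference was 1.52 ± 0.87 (SE; limma's adjusted p = 1.00), and it was 0.53 without foregut endoderm 1 and 2.51 without foregut endoderm 2. The other probe set, 1417148_at, stayed at the floor throughout.

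**Figure D2:**
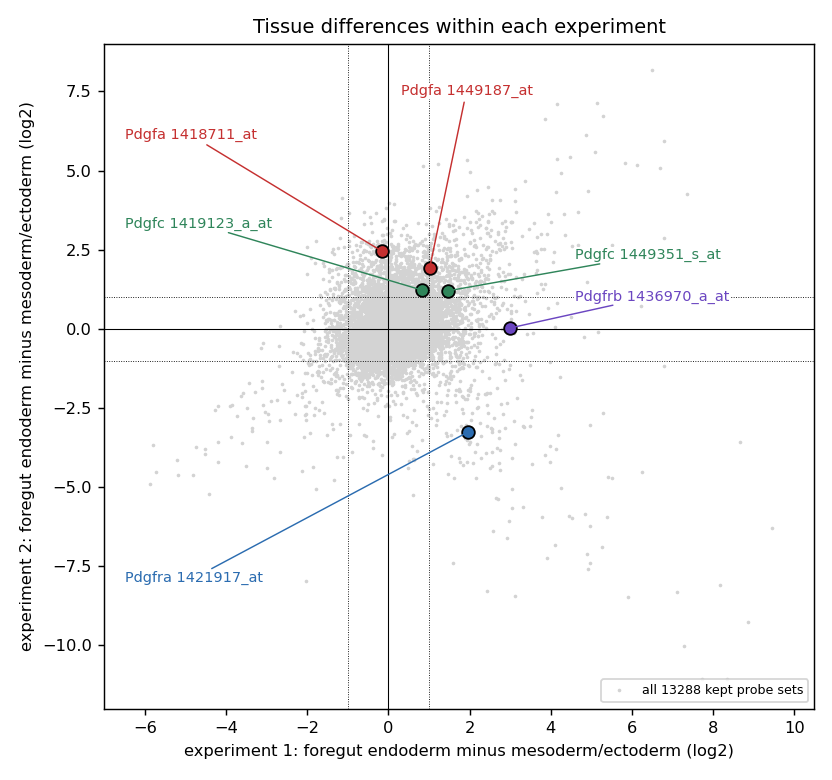
Log2 difference of foregut endoderm minus mesoderm/ectoderm in experiment 1 (horizontal axis) and experiment 2 (vertical axis) for the 13288 kept probe sets in grey and the 6 kept PDGF probe sets in colour, with dotted lines at 2-fold. Both Pdgfc points and 1 Pdgfa point (1449187_at) lie at the upper right, Pdgfra at 1.96 and -3.26, and Pdgfrb at 3.00 and 0.03.

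The receptors were read beside the markers of the cells they are known from. The head and paraxial mesenchyme list had 11 of 17 genes above 5 in foregut endoderm 1, 7 in foregut endoderm 2, 7 in mesoderm/ectoderm 1 and 8 in mesoderm/ectoderm 2. Its medians were 6.78, 3.28, 3.76 and 4.50 on these arrays, and its summed intensity was 7045, 1953, 1679 and 4804. Foregut endoderm 1 thus had the highest median, as it had the highest Pdgfra value. The medians of the other arrays all lay below the filter, so their order was not read. By summed intensity the lowest array was mesoderm/ectoderm 1, while for Pdgfra it was foregut endoderm 2. Vim, the intermediate filament gene of mesenchyme, read 12.07, 9.98, 10.04 and 11.75 with the brightest of its 3 kept probe sets. The 3 did not all have the same sign of the mean tissue difference. Of the 9 kept genes of the list, 5 switched direction as Pdgfra did, up in endoderm in experiment 1 and down in experiment 2. All 5 switched by 2-fold or more, as did 1.96% of all kept genes. The other 4 had the higher value in endoderm both times, against 37% of all kept genes. Among these 4, Tbx1 was kept only through the endoderm arrays and read 3.76 and 4.16 in mesoderm/ectoderm 1 and 2. None of the 17 was at the floor on all 4 arrays. Neural crest, which carries the alpha receptor as well, had medians of 7.68, 5.29, 7.80 and 7.79 over its 10 listed genes, with 7, 6, 9 and 9 above 5, summed intensities of 4281, 982, 3652 and 3822 and none at the floor on all 4 arrays. Foregut endoderm 2 was lowest here in median, in summed intensity and in genes above 5, while the other 3 arrays were alike in median and summed intensity. Of the 9 kept crest genes 6 were lower in endoderm in both experiments, among them Pax3, kept only through mesoderm/ectoderm. With quantile normalization they were again 6, where 4308 of all 13288 kept probe sets were lower in both. Only 1 was higher in both (37% of all kept genes), and 2 switched by at least 2-fold as Pdgfra did (1.96%). The part of mesenchyme and crest in the Pdgfra and Pdgfrb values was not tested.

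Heart muscle and endothelial genes were uneven over the same arrays. In the order foregut endoderm 1 and 2, mesoderm/ectoderm 1 and 2, 11, 3, 1 and 12 of the 12 heart genes were above 5, and their summed intensity was 16270, 1119, 334 and 101960. Of the 12 endothelial genes 7, 2, 2 and 6 were above 5, with summed intensities of 1396, 258, 996 and 1397. In mesoderm/ectoderm Pdgfra differed by -0.36 between experiments, and the heart median was 3.22 in experiment 1 and 11.92 in experiment 2. The mural and smooth muscle list, cells known for the beta receptor, had medians of 2.82, 2.75, 2.68 and 3.41, and 3 of its 12 genes were at the floor on all 4 arrays (Kcnj8, Anpep and Myh11). Acta2, a smooth muscle actin that early heart muscle also expresses, read 11.84, 7.59, 6.99 and 13.43. Notch3, a Notch receptor of mural cells that other cells express too, read 9.34, 9.42, 8.58 and 8.21. The part of these cells in the receptor values was not tested.

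**Figure D3:**
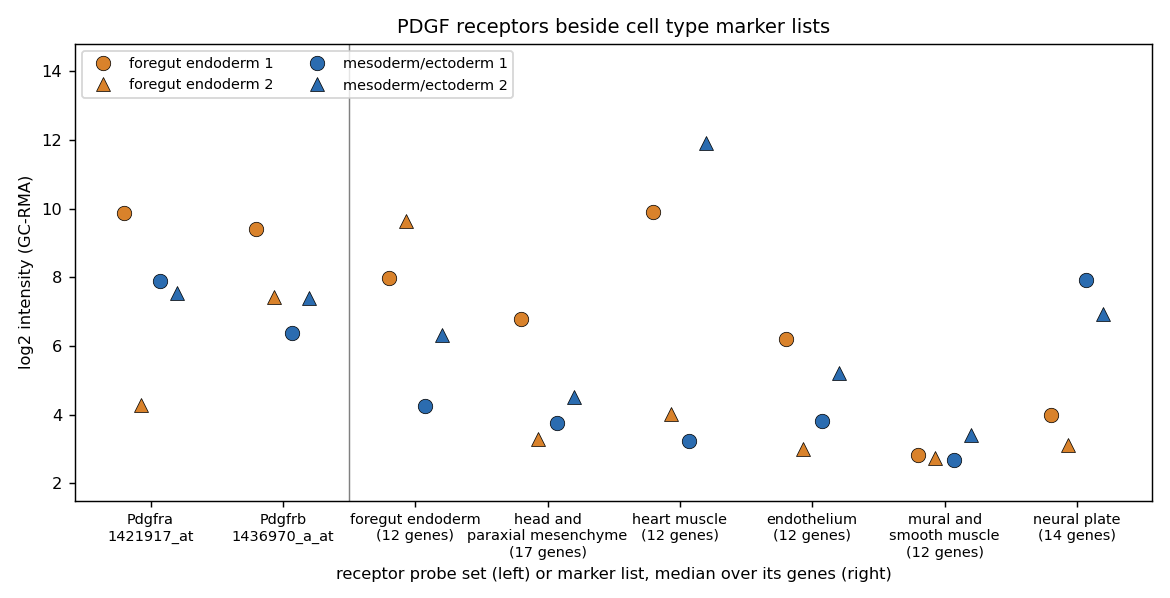
Log2 intensity of the kept Pdgfra and Pdgfrb probe sets (left) and the median log2 intensity of 6 marker lists (right) on the 4 arrays, with symbols as in the plot of the 11 probe sets. Foregut endoderm 1 is the highest array for both receptors and for the mesenchyme and endothelium lists, and heart muscle medians run from 3.22 to 11.92.

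Within a tissue, the members differed between experiments to unequal extents. From experiment 1 to experiment 2 Pdgfa (1449187_at) changed by 2.07 in endoderm and 1.16 in mesoderm/ectoderm, Pdgfrb by -1.98 and 0.99, and Pdgfra by -5.58 and -0.36. The Pdgfc probe sets moved less, 1419123_a_at by 0.30 and -0.10 and 1449351_s_at by -0.28 and -0.01, the latter below the filter in mesoderm/ectoderm. With tissue as a term, the difference of experiment 2 minus experiment 1 was 1.61 ± 0.35 (SE) for Pdgfa, with limma's adjusted p = 0.119. It was -2.97 ± 1.54 for Pdgfra (adjusted p = 0.301) and 0.10 ± 0.25 for Pdgfc (adjusted p = 0.813). The Pdgfra value averages -5.58 in endoderm, where foregut endoderm 2 lay below the filter, and -0.36 in mesoderm/ectoderm, and stands for neither tissue. With limma, 0 of the 6 members and 0% of all kept probe sets passed between experiments. At an unadjusted p under 0.05 both Pdgfa probe sets did, as did 30.1% of all. Of the 2, 1418711_at passed the filter only through the arrays of experiment 2, so it is no support of its own here, which leaves 1449187_at. The share of 30.1% was not recomputed without probe sets of that kind.

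The other genes around PDGF signalling were read from 6 lists of 87 genes, of which 82 had a probe set of that single symbol here and 58 were kept, with 1 probe set per gene. With limma, 0 of the 58 passed over the 7802 kept genes (0%). Higher in endoderm in both experiments were 34 of the 58, where 37% of all kept genes were. Lower in both were 6 of the 58, where 3163 of all 13288 kept probe sets were with log2 of intensity plus 16. That offset changes no sign within an experiment. The median difference of the 58 was 0.59 in experiment 1 and 0.33 in experiment 2, against 0.15 and 0.01 for all kept genes. At least 2-fold higher in both were 6, where 3.54% of all kept genes were, and 0 were at least 2-fold lower in both (1.24% of all). Without St14, kept only through endoderm, 33 of 57 were higher in both and 5 at least 2-fold, against 2.83%.

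Among genes that process or bind the ligands, all 7 kept of 12 were higher in endoderm in both experiments, where 37% of all kept genes were, also under the 3 other scalings, with medians of 1.49 and 0.95. Without St14 that was 6 of 6, against 36.5% of the genes not kept through 1 tissue alone. Plat encodes tissue plasminogen activator, a protease that can release PDGF-C from its CUB domain. It read 9.03 and 9.16 in foregut endoderm 1 and 2 against 6.60 and 6.14 in mesoderm/ectoderm 1 and 2, which left a wide gap between the tissues. The difference was 2.73 ± 0.34 (SE; limma's adjusted p = 0.475), 2.43 in experiment 1 and 3.02 in experiment 2. St14, the matriptase of epithelial surfaces, read 6.33 and 8.93 against 3.87 and 4.46, at least 6.21-fold higher against the filter level. Nrp1, a neuropilin that acts as a co-receptor for growth factors, differed by 2.42 and 0.98. None of the 3 passed the test.

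Of 6 related growth factors 2 were kept. Vegfa, the main vascular growth factor, was higher in endoderm by 1.02 and 2.63. Vegfc, a lymphatic growth factor chosen after its values were seen, differed by 0.61 and -4.12. Pdgfd, the other PDGF ligand gene and likewise chosen after its values were seen, was not kept and reached 4.73 at most. Of 7 related receptors 3 were kept. Kit, a receptor of the same class as the PDGF receptors, was higher in endoderm by 0.83 and 2.76. The VEGF receptor genes Kdr (3.10 and -2.92) and Flt4 (1.46 and -2.35) switched direction by at least 2-fold as read, as Pdgfra did and as 1.96% of all kept genes did. In foregut endoderm 2 both lay below the filter, at 3.65 and 3.36. Against the filter level the fall of Flt4 in experiment 2 was less than 2-fold, as mesoderm/ectoderm 2 read 5.71.

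Of 35 adaptors and effectors 27 were kept, with medians of 0.37 and 0.07. In both experiments 12 were higher, where 37% of all kept genes were. Lower in both were 4, where 3163 of all 13288 kept probe sets were with log2 of intensity plus 16. After median centring over the kept probe sets 9 were higher and 6 lower, and the second median was -0.05. With that centring 3100 of all 13288 kept probe sets were higher in both and 4967 lower. Plcg1, a phospholipase recruited to active receptors, differed by 1.08 and 0.97. The PI3-kinase subunit Pik3ca differed by 0.55 and 1.01, and Slc9a3r1, a scaffold that binds the receptor tail, by 0.93 and 1.46. Among 13 genes of receptor down-regulation 10 were kept, with medians of 0.35 and 0.41. The cytokine signalling inhibitor Socs3 differed by 2.30 and 3.58, the ubiquitin ligase gene Cbl by 1.04 and 0.53 and the Sprouty gene Spry1, a feedback inhibitor of receptor signalling, by 0.42 and 2.29. Of 14 early response genes 9 were kept, with medians of 1.27 and 0.41. Fos differed by 3.01 and 0.74, Jun by 0.97 and 1.05, and Ccn1, a matrix-associated signalling protein, by 2.51 and 2.17. These genes also answer to other receptors and to handling of tissue, and none passed limma's test.

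**Figure D4:**
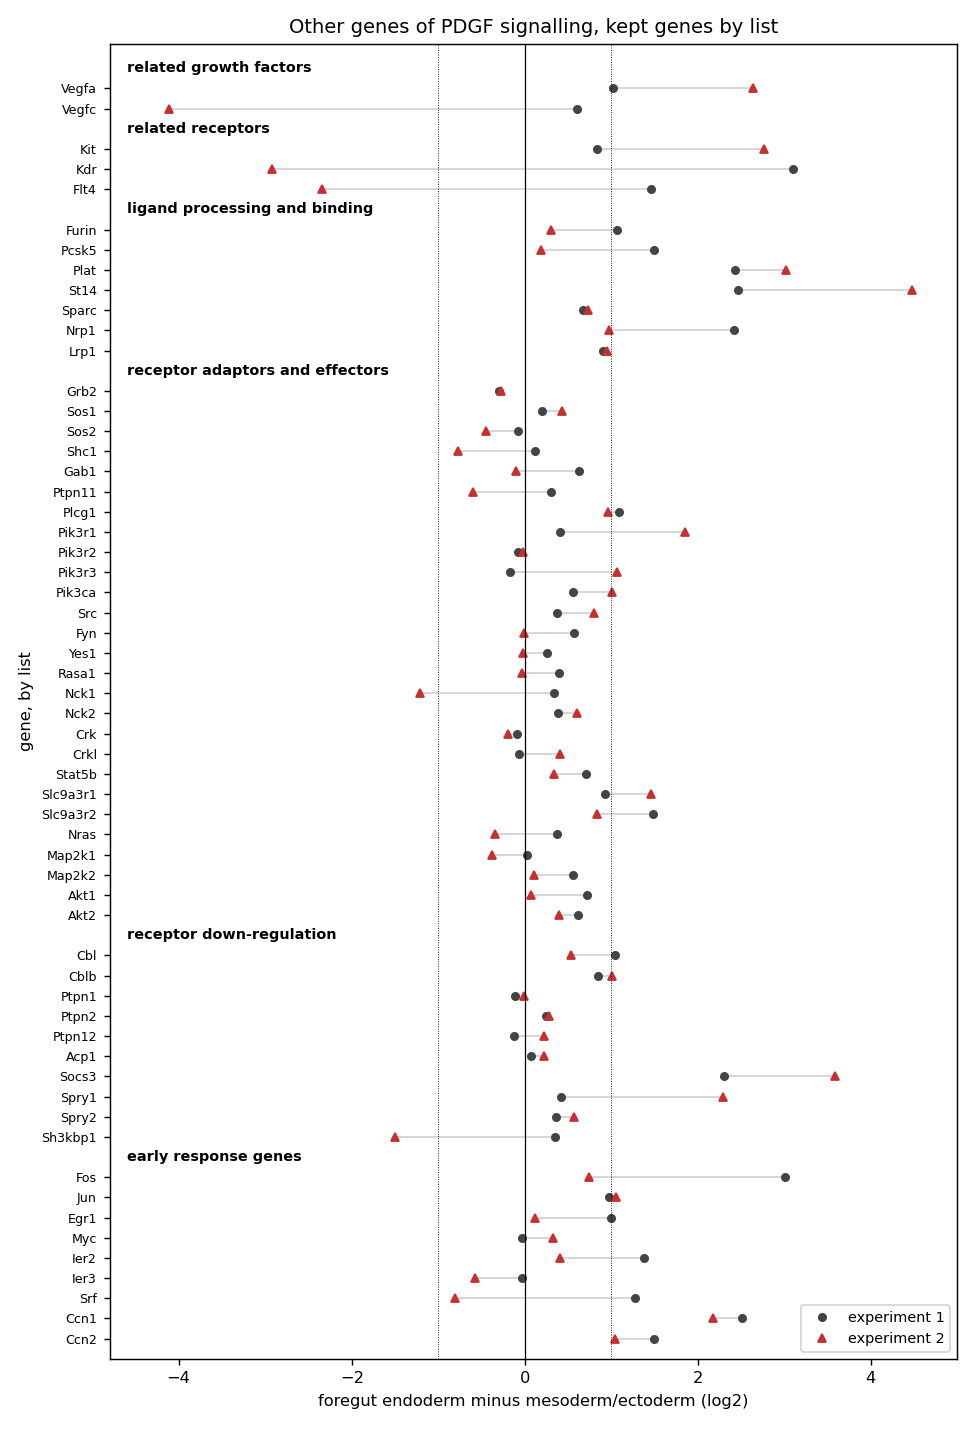
Log2 difference of foregut endoderm minus mesoderm/ectoderm in experiment 1 (circles) and experiment 2 (triangles) for the 58 kept genes of 6 lists, with dotted lines at 2-fold. All 7 genes that process or bind the ligands have both symbols right of 0, while Kdr and Flt4 have them on opposite sides.

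The genes most like each member were found by the root mean square (RMS) difference of log2 values, centred on each gene's mean, over 4 arrays and 7801 other genes. Lama1, a laminin chain gene, was nearest to Pdgfrb (0.06), with tissue differences of 2.89 and -0.07, then Epas1 (0.23) and Dact1 (0.27). No gene came within 0.25 of Pdgfra. Nearest to it were Dach1 (0.33), a nuclear cofactor, Fst (0.38), which encodes the activin antagonist follistatin, and Fli1 (0.42), an ETS factor of endothelium and blood. In foregut endoderm 2 these genes and Pdgfra all lay below the filter, at 3.55, 3.98, 2.56 and 4.28, and the distances include those values. Nearest to Pdgfa were Kcnk1 (0.15), Llgl2 (0.15), a cell polarity gene, and Cep170b (0.17). The Pdgfc profile was a common one, with 222 genes within 0.25, led by Ankrd17 (0.03), Tnip1 (0.04) and Pdpn (0.04). Between members, Pdgfa and Pdgfc differed by 0.80, Pdgfra and Pdgfrb by 1.74 and Pdgfa and Pdgfra by 2.96. With 4 arrays these are descriptions of profiles and carry no test.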

How the data were processed

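The deposited table gives an intensity for each probe set, to which the authors had applied GC-RMA with the GenePattern software, as the series' design text states, and the submitters' processing notes name RMA. No version or parameter of that step was found. Their linear scale was read from the values (medians from 5.72 to 6.15, highest value 75547), and log2 was taken here. RNA had been amplified in 2 rounds per the labels' protocols.

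The tissue test was two-sided, with R 4.3.3 and limma 3.58.1 (eBayes after lmFit). It had no term for experiment, and p-values were adjusted by Benjamini-Hochberg over all kept probe sets at a threshold of 0.05. The 64 Affymetrix controls stayed out. The scripts were tested on simulated data. Of 45101 probe sets 34958 had 1 symbol, and all 5 member symbols matched RefSeq. Only 2 arrays per tissue limit the precision, and nothing says that the pools were more than separate samples, so p-values measure the spread between these samples. The sample numbers pair the samples, as the labels tie them to a way of dissection, and deviations of same-numbered arrays correlated at 0.56.

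Members and lists were chosen with earlier results of these data known. Named from the lists were up to 3 genes with the smallest p and the same sign in both experiments, up to 2 with opposite signs of at least 1, and up to 2 markers of highest mean. Outside this rule Pecam1, Nkx2-1, Kcnj8, Anpep, Myh11, Tbx1, Pax3, Vegfc and Pdgfd were named as well. Alternatives were scalings, filters, an offset of 16, an intensity trend, a replicate block, 1 probe set per gene and leaving out each array.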

Additional observations from a re-analysis of the deposited data

Results flagged for a closer look

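The tissue difference of Pdgfra (1421917_at) had opposite signs in the 2 experiments. It was 1.96 in experiment 1, higher in foregut endoderm, and -3.26 in experiment 2, lower in foregut endoderm. With 1 array of each tissue per experiment, the difference between the experiments was not tested. The signs were the same with quantile normalization (1.79 and -3.32), with both median centrings and with the offset of 16.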

How the results depend on the processing

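The number of PDGF probe sets that were 2-fold or more higher in endoderm in both experiments, 2 as deposited, was 0 with quantile normalization and with log2 of intensity plus 16. It was 1 with median centring over all probe sets, with median centring over the kept probe sets and without probe sets kept through 1 tissue alone (both chosen after seeing the data), with a filter at 6 and with 1 probe set per gene. With both median centrings that 1 was Pdgfc 1449351_s_at, kept only through endoderm, and with the other settings it was Pdgfa 1449187_at. As deposited, Pdgfa (1449187_at) stood just past 2-fold in experiment 1, at 1.02. Over all kept probe sets that count was 474 higher and 133 lower as deposited, 367 and 194 with quantile normalization and 347 and 211 with median centring over the kept probe sets. The median tissue difference of all kept probe sets moved from 0.10 to -0.02 with quantile normalization. Over fits that each lacked 1 array, the tissue difference of Pdgfra (1421917_at) ran from -3.44 to 2.14, positive only without foregut endoderm 2 (2.14), and that of Pdgfa (1418711_at) from -0.81 to 3.10, negative only without foregut endoderm 2. The cause was not tested. Limma called 0 probe sets, members included, under each alternative run. With the replicate number as a block it called 0 as well, and at an unadjusted p under 0.05 3 of the 6 members and 1326 of all kept probe sets, against 2 and 500 without the block; Pdgfa (1449187_at) then had an SE of 0.35 and an adjusted p of 0.496. The block changed no call. Unadjusted, 1 member was below 0.05 with quantile normalization and either median centring. It was Pdgfc 1449351_s_at, which was kept only through endoderm. For Pdgfc 1419123_a_at limma's unadjusted p was 0.079 with quantile normalization, 0.051 with median centring over all probe sets and 0.084 over the kept ones. Under settings that kept all arrays, 57 of 57 tissue differences had the sign of the main ones. Most of that was fixed in advance, because the filters, the block, the intensity trend and 1 probe set per gene leave a difference as it is. Only the other scalings and the offset of 16 could have changed a sign. Signals near the floor limit what can be read for Pdgfb.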
